A study of Bos taurus with 15 samples.

Results

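The genes described here control the making of fatty acids and cholesterol: the sterol regulatory element binding proteins (SREBF1, SREBF2), the proteins that hold, release and cut them (SCAP, INSIG1, INSIG2, MBTPS1, MBTPS2), the carbohydrate response factor ChREBP and its partner (MLXIPL, MLX) and the liver X receptor LXRα (NR1H3). They were taken from the deposited tables by gene symbol, and 9 of the 10 listed symbols had a row, among 13895 genes with reads. INSIG2 was not analysed here. RNA was sequenced from subcutaneous fat of primiparous Prim Holstein cows in 5 groups of 3 libraries each. The first group was sampled at -4 weeks peripartum (wkpp), before any diet experiment, and is called pre. The other 4 groups had been fed since 1 month before calving on a diet of high energy, called HE, or one of low energy, called LE, and were sampled at 1 or at 16 wkpp. The study divided its cows by energy balance at 1 wkpp, sequenced 3 cows of each class whose balance was among the more extreme, and took the fat from the dewlap under the neck, so the groups stand for extremes and not for all cows on a diet, and the labels give the diets only. It took biopsies of each animal at all 3 times, so libraries of different weeks may come from the same cows, but no label ties them and they were fitted as independent. The labels do not say which diet the pre cows later received.

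SREBPs are made as membrane proteins of the endoplasmic reticulum and reach the nucleus only after transport to the Golgi by SCAP and cleavage there by the proteases MBTPS1 (site-1) and MBTPS2 (site-2). INSIG1 holds SCAP back when sterols are plentiful, and its own gene is a target of the SREBPs. The SREBP-1 proteins chiefly drive genes of fatty acid synthesis and SREBP-2 those of cholesterol synthesis and uptake, ChREBP (MLXIPL) with its obligate partner MLX answers to glucose metabolites, and LXRα senses oxysterols and switches on SREBF1. In ruminants, fat tissue is the main site of fatty acid synthesis outside the lactating udder, from acetate more than from glucose. Since much of the control of SREBPs lies in transport and cleavage, the level of their mRNA is not a measure of their activity.

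Every library had a value for each gene from reads on exons and from reads on the whole gene, introns included. Exon reads per library ran from 2207801 to 7658010 in the 6 HE libraries and from 8395757 to 14931887 in the 9 pre and LE libraries, so depth and the HE diet cannot be told apart. Added spike-in RNA took 4.50 to 27.1% of the spike-in and exon reads in HE and 0.294 to 2.28% in the others. The 6 measured of 8 adipocyte markers had reads in every group, with a summed level of 9340 to 86861 normalized exon reads per library. The 8 skeletal muscle markers summed to 1173 to 4099 in the HE libraries and to 85.2 to 356.6 in the others, with 2 of the 8 at 0 in all HE libraries of 16 wkpp and 1 of the 8 at 0 in pre and in LE at 1 wkpp. All levels below are normalized exon reads, that is, reads divided by the library's size factor over the 15 libraries. In pieces of tissue, fewer cells of a type and less RNA per cell cannot be told apart.

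SREBF1 was at 2599, 3753 and 2739 normalized exon reads in the pre libraries, at 2063, 1721 and 2989 in HE and 1011, 1346 and 1258 in LE at 1 wkpp, and at 3748, 2283 and 5159 in HE and 1976, 2624 and 1090 in LE at 16 wkpp. The 3 LE libraries at 1 wkpp stood below all pre libraries and below all HE libraries of the same week, whereas at 16 wkpp the diets overlapped. The log2 fold change of pre over LE at 1 wkpp was 1.32 ± 0.19 (SE, n = 3 against 3), a 2.50-fold difference, with adjusted P = 0.013 for exon reads and 0.16 for whole gene reads (limma). At 1 wkpp, LE over HE was -0.86 ± 0.25, with adjusted P = 0.05 and 0.24. Over HE at 1 wkpp, pre differed by a log2 fold change of only 0.46 ± 0.25 (adjusted P = 0.22, limma). The order of the group means from the highest was HE at 16 wkpp (3730 ± 1438, SD), pre (3030 ± 629.5), HE at 1 wkpp (2257 ± 655.8), LE at 16 wkpp (1896 ± 770.3) and LE at 1 wkpp (1205 ± 173.4), and each neighbouring pair in that order overlapped in its libraries.

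SREBF2 separated the diets at both weeks in exon reads. It was at 1553, 1878 and 1474 normalized exon reads in HE and at 566.5, 543.3 and 673.3 in LE at 1 wkpp. At 16 wkpp it was at 1804, 745.4 and 2741 in HE and at 418.2, 377.1 and 427.7 in LE. All LE libraries stood below all HE libraries in each week, and the second HE library of 16 wkpp came closest to LE. The log2 fold change of LE over HE was -1.44 ± 0.20 at 1 wkpp (2.72-fold lower; adjusted P = 0.0086 in exon reads and 0.063 in whole gene reads, limma) and -1.91 ± 0.39 at 16 wkpp (3.77-fold lower; adjusted P = 0.0085 and 0.021). Neither passed the threshold of 0.01 in both counts, but in the fit over all 15 libraries the 16 wkpp contrast did (adjusted P = 0.0014 and 0.0041, limma). The pre libraries, at 620.9, 539.2 and 1033, lay below all HE libraries of 1 wkpp, with a log2 fold change of -1.20 ± 0.26 for pre over HE (adjusted P = 0.0065 and 0.085, limma), and overlapped LE of 1 wkpp, where it was 0.24 ± 0.24 (adjusted P = 0.73). Reads on exons were 74.0 and 75.2% of the whole gene reads of SREBF2 in HE at 1 and 16 wkpp, and 54.4 to 58.2% in the other groups. For MLXIPL the share was 77.9 and 77.0% in HE and 52.0 to 61.7% in the other groups. Both HE groups also had the higher shares for SREBF1, SCAP, INSIG1, MLX, NR1H3 and MBTPS1, and the lower ones for MBTPS2.

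**Figure D1:**
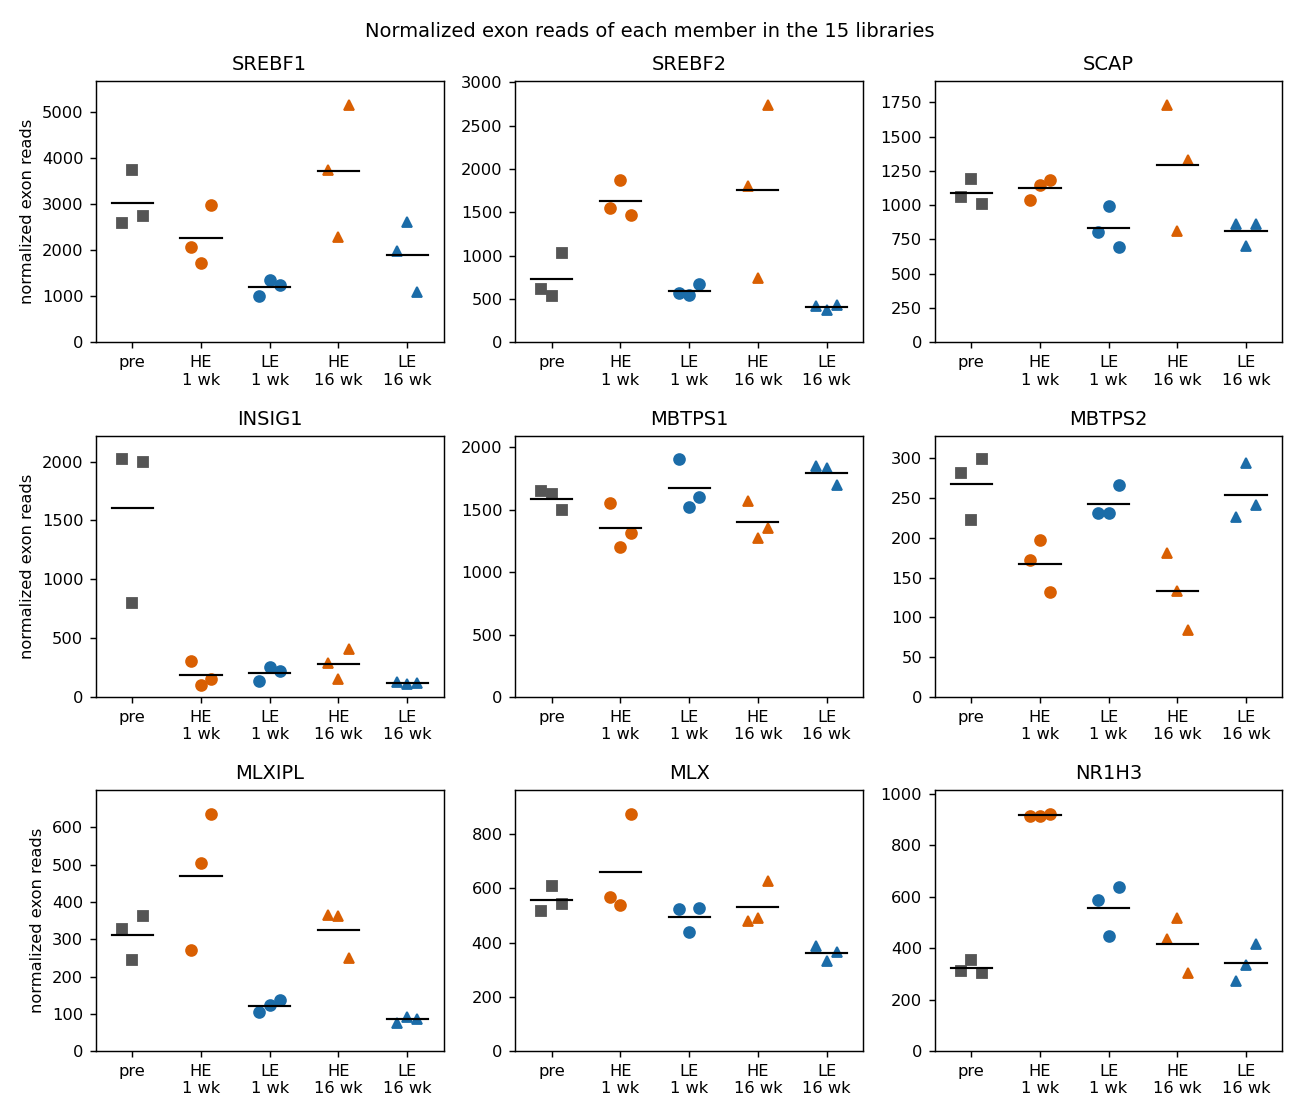
Normalized exon reads (vertical axis, from 0) of the 9 genes in each of the 15 libraries, by group (horizontal axis); squares are pre, circles 1 wkpp, triangles 16 wkpp, orange HE, blue LE, and bars are the means of 3 libraries. INSIG1 was highest in the 3 pre libraries, MLXIPL and SREBF2 were lower in LE than in HE at both weeks, and the 3 HE libraries of 1 wkpp had the highest NR1H3.

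SCAP, the escort of the SREBPs, was at 1063, 1190 and 1007 normalized exon reads in pre, 1040, 1146 and 1180 in HE and 808.1, 994.9 and 698.8 in LE at 1 wkpp, and 1731, 814.9 and 1330 in HE and 859.8, 705.8 and 859.9 in LE at 16 wkpp. The LE libraries of 1 wkpp stood below those of HE at the same week and of pre. Its log2 fold change was between -0.62 ± 0.26 (LE over HE at 16 wkpp) and 0.39 ± 0.18 (pre over LE at 1 wkpp), and no adjusted P in exon or whole gene reads was under 0.12 (limma).

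INSIG1 had the widest range of the 9 genes as a ratio of its highest to its lowest library. It was at 2019, 800.0 and 1995 normalized exon reads in the pre libraries, against 307.6, 100 and 150.7 in HE and 136.2, 255.2 and 219.4 in LE at 1 wkpp. At 16 wkpp it was at 288.6, 154.2 and 403.5 in HE and at 124.2, 112.6 and 118.1 in LE. The lowest pre library stood above every library after calving. Pre over HE at 1 wkpp gave a log2 fold change of 2.94 ± 0.48 (7.69-fold; adjusted P = 0.0017 in exon reads and 0.021 in whole gene reads, limma), and pre over LE gave 2.92 ± 0.40 (7.54-fold; adjusted P = 0.0097 and 0.034). Without the first HE library, pre over HE was 3.64 (range 2.59 to 3.64 with each library left out). Both comparisons use the same 3 pre libraries, and both missed 0.01 in whole gene reads. In the fit over all 15 libraries, the same contrasts passed in both counts, with adjusted P = 2.5e-04 and 0.0014 against HE and 5.2e-04 and 0.0036 against LE (limma). LE at 16 wkpp had the least spread, at 118.3 ± 5.77 (SD, n = 3), and stood below all HE libraries of that week with a log2 fold change of -1.17 ± 0.29 (adjusted P = 0.02 and 0.11, limma).

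Of the proteases that cut SREBPs, neither passed in any comparison. MBTPS1 was at 1646, 1623 and 1499 normalized exon reads in pre, 1551, 1202 and 1312 in HE and 1904, 1524 and 1602 in LE at 1 wkpp, and 1568, 1275 and 1354 in HE and 1851, 1831 and 1700 in LE at 16 wkpp. At 16 wkpp all LE libraries were above all HE libraries, with a log2 fold change of 0.37 ± 0.16 (adjusted P = 0.14 in exon reads and 0.42 in whole gene reads, limma). MBTPS2 was at 282.0, 222.3 and 298.9 in pre, 172.1, 197.3 and 132.3 in HE and 231.9, 231.1 and 266.5 in LE at 1 wkpp, and 181.0, 133.7 and 83.9 in HE and 226.5, 294.4 and 241.9 in LE at 16 wkpp. Its HE values lay below all pre values at 1 wkpp and below all LE values of the same week. LE over HE at 16 wkpp was 0.85 ± 0.28 on the log2 scale for exon reads (adjusted P = 0.056, limma) and 0.43 ± 0.19 for whole gene reads (adjusted P = 0.2), and in exon reads 0.62 to 1.23 with each library left out. Only 7.54 to 11.0% of the MBTPS2 reads of a group fell on exons, the lowest share of the 9 genes, and the exon values in HE rest on 31 to 185 reads per library.

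MLXIPL was the only one of the 9 genes that passed the threshold in both counts when the 6 libraries of a comparison were fitted, in LE against HE at 16 wkpp. It was at 364.9, 362.4 and 249.1 normalized exon reads in HE and at 76.9, 92.4 and 87.7 in LE at 16 wkpp, and all LE libraries stood below all HE libraries. It fell by 1.94 ± 0.22 on the log2 scale in LE relative to HE (3.85-fold lower; adjusted P = 7.7e-04 in exon reads, limma) and whole gene reads gave -1.56 ± 0.21 (adjusted P = 0.0048). With any 1 of the 6 libraries left out, the log2 fold change in exon reads stayed between -2.09 and -1.82 with adjusted P = 0.0024 to 0.0052 (limma), but the adjusted P of whole gene reads was 0.012 to 0.024 and the call in both counts was lost each time. At 1 wkpp the values were 270.1, 505.3 and 636.0 in HE and 104.3, 125.3 and 137.1 in LE, again without overlap, with -1.75 ± 0.33 (3.36-fold lower; adjusted P = 0.013 and 0.079, limma), and passed in both counts in the fit over all 15 libraries (adjusted P = 7.1e-04 and 0.0041). The pre libraries, at 328.0, 245.5 and 363.4, lay above all LE libraries of 1 wkpp with 1.34 ± 0.23 (adjusted P = 0.025 and 0.052, limma) and overlapped HE. Of 8327 genes with a mean of at least 100 exon reads, MSI2 (r = 0.92), TBC1D16 (r = 0.92) and HOOK2 (r = 0.91) had the pattern most like MLXIPL over the 15 libraries (Pearson, log2 scale), which share the depth difference between HE and the other groups. Among the other members, MBTPS1 went the opposite way most closely (r = -0.80 over the same 15 libraries).

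MLX, the partner of MLXIPL, was at 517.4, 610.7 and 541.8 normalized exon reads in pre, 567.3, 537.7 and 874.9 in HE and 524.3, 438.7 and 526.4 in LE at 1 wkpp. At 16 wkpp it was at 479.3, 491.0 and 628.3 in HE and at 389.1, 331.1 and 367.1 in LE, where the LE libraries were the lowest 3 of the 15. LE over HE was -0.53 ± 0.17 on the log2 scale at 16 wkpp (adjusted P = 0.057 in exon reads and 0.081 in whole gene reads, limma) and -0.34 ± 0.23 at 1 wkpp (adjusted P = 0.36).

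NR1H3 was highest at 1 wkpp in HE, where its 3 libraries held 912.4, 913.3 and 922.7 normalized exon reads, a spread of 0.621% (SD over mean). These values rest on 875, 338 and 251 exon reads. In normalized whole gene reads the same libraries were at 1126, 1033 and 973.6 (1044 ± 76.8, SD), a wider spread. LE libraries of 1 wkpp were at 585.9, 447.1 and 637.4, above all pre libraries at 313.1, 354.8 and 305.4. At 16 wkpp, HE was at 436.3, 516.7 and 303.3 and LE at 273.8, 335.4 and 416.1, and both overlapped the pre range. Pre over HE at 1 wkpp gave a log2 fold change of -1.49 ± 0.19 (2.81-fold lower; adjusted P = 5.5e-04 in exon reads and 0.014 in whole gene reads, limma; 7.8e-05 and 6.1e-04 in the fit over all 15 libraries), and pre over LE gave -0.76 ± 0.19 (1.69-fold lower; adjusted P = 0.092 and 0.16). NR1H3 and INSIG1 therefore stood apart from pre in opposite directions at 1 wkpp in both diets. From 1 to 16 wkpp, the log2 fold change of 1 over 16 wkpp was 1.15 ± 0.24 in HE and 0.69 ± 0.21 in LE (adjusted P = 0.24 and 0.7 in exon reads, limma), without overlap between the weeks in either diet.

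For pre against HE at 1 wkpp, 0 of 9 passed in both counts and 3 passed in exon reads alone (INSIG1 higher, SREBF2 and NR1H3 lower in pre), where 1.11% of 12046 genes passed in both counts and 13.8% of 12256 in exon reads, and 4 of 9 did not overlap between the groups, where 41.7% of genes did not. For pre against LE, 0 of 9 passed in both counts and 1, INSIG1, in exon reads, beside 0.0340% and 0.542% of genes, and 5 of 9 did not overlap, beside 19.2%. At an unadjusted P under 0.05 in exon reads, 4 of 9 members were found in each of the 2 (limma), beside 36.9% of genes against HE and 14.0% against LE, and limma-trend passed 0 in both counts. With 1 library left out, the adjusted P in exon reads was 0.0011 to 0.0077 for INSIG1, 0.0044 to 0.036 for SREBF2 and 7.8e-04 to 0.0052 for NR1H3 against HE, and 0.0037 to 0.056 for INSIG1 against LE (limma). The 2 comparisons share their pre libraries, so a like result in both is not independent.

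Within a diet, 1 against 16 wkpp gave 0 of 9 members in either count, beside 0% of genes in both counts and 0% in exon reads for HE as for LE (limma), and limma-trend gave 0 as well. At an unadjusted P under 0.05 in exon reads, 1366 genes (11.6%) were found in HE and 822 (6.97%) in LE. Among them there was 1 member in HE, NR1H3, and 5 in LE (SREBF2, INSIG1, MLXIPL, MLX and NR1H3), all higher at 1 wkpp. The groups did not overlap for 1 of 9 members in HE, beside 18.8% of genes, and for 5 of 9 in LE, beside 12.0%. For LE the values of those 5 were 0.43 to 0.71 on the log2 scale. The difference between the diets in this change was tested itself and 0 of 9 members passed, beside 0% of 12226 genes, with 0 members and 570 genes (4.57%) at an unadjusted P under 0.05 in exon reads (limma) and 0 genes by limma-trend. INSIG1 came nearest, at a difference of 1.17 ± 0.55 on the log2 scale (1 over 16 wkpp, LE minus HE; adjusted P = 0.98), being 1.63-fold higher at 1 than at 16 wkpp in LE and 1.43-fold lower in HE. The difference was 0.83 to 1.86 with each library left out (1.86 without the first HE library of 1 wkpp), and the log2 fold change in HE was -1.14 without that library and up to -0.18 without the second.

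Between the diets, 8 of the 9 members had an unadjusted P under 0.05 at 16 wkpp, beside 35.0% of genes, and 4 at 1 wkpp, beside 29.9% (exon reads, limma). In LE against HE at 1 wkpp, 0 of 9 passed in both counts, beside 0% of 11709 genes, and 1, SREBF2, passed in exon reads, beside 0.872%. Limma-trend again passed 0, and 3562 genes had an unadjusted P under 0.05 in exon reads. The groups did not overlap for 7 of 9 members, beside 36.9% of genes: SREBF1, SREBF2, SCAP, MLXIPL, MLX and NR1H3 were lower and MBTPS2 higher in LE. At 16 wkpp, 1 of 9 (MLXIPL) passed in both counts, beside 3.13% of genes, 2 of 9 (MLXIPL and SREBF2) in exon reads, beside 9.19%, and 6 of 9 did not overlap, beside 40.6%. With 1 library left out, the adjusted P of SREBF2 in exon reads was 0.0055 to 0.053 at 1 wkpp and 0.0014 to 0.039 at 16 wkpp (limma). At 16 wkpp SREBF2, INSIG1, MLXIPL and MLX were the lower ones in LE, and MBTPS1 and MBTPS2 the higher ones. The median of the 9 log2 fold changes in exon reads was -0.42 at 1 wkpp and -0.62 at 16 wkpp, beside -0.00 and 0.00 over all genes. Summed markers of cell types also differed between the diets. Adipocyte markers summed to 18538 to 55681 normalized exon reads per library in HE and 71217 to 86861 in LE at 1 wkpp, and to 9340 to 39198 and 41368 to 47714 at 16 wkpp. Of 6 adipocyte markers 0 passed in either week, beside 0% and 3.13% of all genes. At 1 wkpp 4 of them did not overlap, beside 36.9% of all genes, and at 16 wkpp 2, beside 40.6%. Macrophage markers (5 measured of 6) summed to 2010 to 6983 in HE and 7586 to 11737 in LE at 1 wkpp, and to 1970 to 2269 and 10451 to 13710 at 16 wkpp, where 2 of the 5 passed, beside 3.13% of all genes. At 16 wkpp, 1 of 4 tested muscle markers also passed, lower in LE, and 1 of 5 fibroblast markers, higher in LE. The part of these markers, of depth and of spike-in share in the diet differences was not tested.

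**Figure D2:**
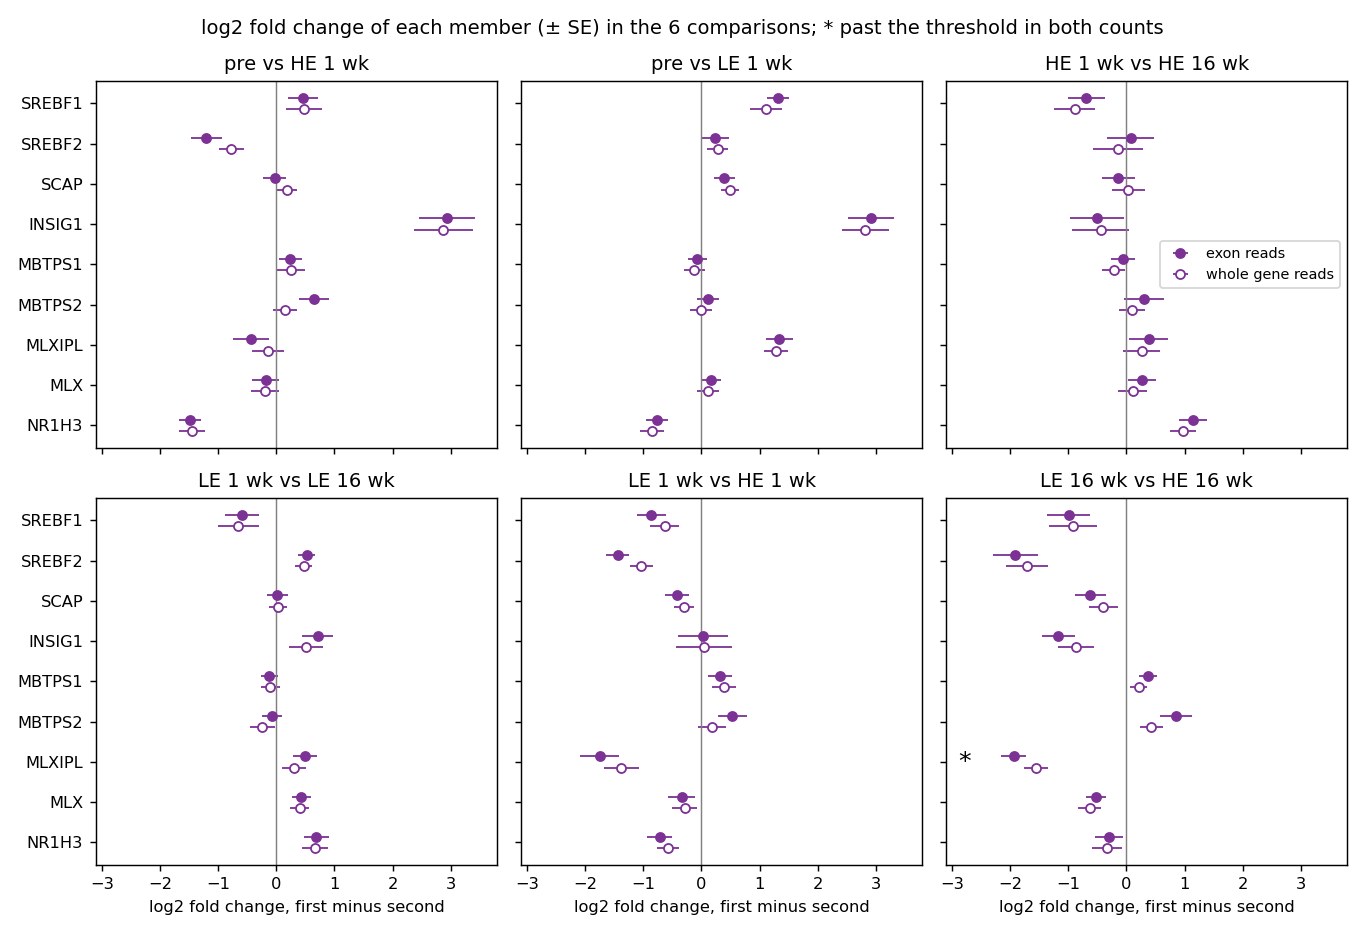
The log2 fold change (horizontal axis, first group minus second) of the 9 genes in the 6 comparisons, with SE bars; filled points are exon reads and open points whole gene reads, and a star marks adjusted P under 0.01 in both. INSIG1 lay near 2.9 in both comparisons with pre, and the star stands at MLXIPL in LE against HE at 16 wkpp.

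Of 18 measured genes of fatty acid and triglyceride synthesis, 10 were higher in pre than in HE at 1 wkpp in both counts and 0 were lower, beside 1.11% of all genes, with a median log2 fold change of 2.89 over the 18 beside -0.03 over all genes. The 3 with the largest change were SCD, the Δ9 desaturase, which rose by 8.08 ± 0.23 on the log2 scale in pre over HE (232649 against 875.1 normalized exon reads on average; adjusted P = 2.9e-08, limma), DGAT2, which forms triglycerides (5.86 ± 0.23; adjusted P = 4.5e-07), and THRSP, the lipogenic Spot 14 protein (5.77 ± 0.47; adjusted P = 6.3e-05). Against LE at 1 wkpp, 3 of the 18 passed, all higher in pre, beside 0.0340% of all genes, and the median was 2.53 beside -0.01: FASN, the fatty acid synthase (4.98 ± 0.42), GPAM, the first enzyme of glycerolipid assembly (4.48 ± 0.40), and ACACA, the acetyl-CoA carboxylase that feeds FASN (3.02 ± 0.24), each with adjusted P = 0.003 in exon reads and 0.0069 in whole gene reads (limma). Over the same comparisons SREBF1 had log2 fold changes of 0.46 and 1.32, MLXIPL of -0.43 and 1.34, and NR1H3 of -1.49 and -0.76. With 1 library left out, the count over all genes fell from 134 to between 0 and 4 in pre against HE, except without the first HE library (192), and from 4 to 0 in pre against LE, except without the second LE library (79). In the 4 comparisons after calving, 0 of the 18 passed in both counts, 1 was lower in LE than in HE at 16 wkpp in exon reads alone (limma), beside 3.13% of all genes in both counts and 9.19% in exon reads in that comparison, and the medians ran from -0.43 to 0.57.

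The 19 measured genes of cholesterol synthesis and uptake, the SREBP-2 programme, had 0 passing in both counts in all 6 comparisons. In exon reads, 5 passed in pre against HE at 1 wkpp, all higher in pre, and 2 in LE against HE at 16 wkpp, both lower in LE, beside 13.8% and 9.19% of all genes. Their median log2 fold change was 1.04 for pre over HE and 0.87 for pre over LE at 1 wkpp, where SREBF2 was at -1.20 and 0.24, and -0.45 for LE over HE at 16 wkpp, where SREBF2 was at -1.91. For LE over HE at 1 wkpp the list median was 0.18, with 12 of 19 higher in LE, where SREBF2 was at -1.44. For 1 over 16 wkpp it was -0.33 in HE, where SREBF2 was at 0.07 ± 0.41, and 0.36 in LE, where SREBF2 was at 0.52. The signs of SREBF2 and of the list median were therefore opposite in pre against HE, in LE against HE at 1 wkpp and within HE. Of 11 LXR targets, 9 were tested in each comparison and 0 passed in both counts. In exon reads 1 was higher and 1 lower in pre than in HE at 1 wkpp, and 1 was higher in LE than in HE at 16 wkpp, beside the same 13.8% and 9.19% of all genes. Their medians ran from -0.31 to 0.40.

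Of 8 measured ChREBP targets, 1 passed, beside 1.11% of all genes: GPD1, the cytosolic glycerol 3-phosphate dehydrogenase, was 2.24 ± 0.20 higher on the log2 scale in pre than in HE at 1 wkpp (adjusted P = 9.2e-05 in exon reads and 0.0059 in whole gene reads, limma), with 5099 and 1098 normalized exon reads on average. In that comparison MLXIPL was at -0.43 ± 0.31 (adjusted P = 0.35, limma). With each library left out it was at -0.83 to -0.18, with adjusted P = 0.033 to 0.74 in exon reads (limma). The median of the 8 targets was -0.41, with 1 higher in pre. In pre against LE at 1 wkpp, 1 of 7 tested targets was higher and 1 lower in exon reads alone, beside 0.542% of all genes. In LE against HE at 16 wkpp, where MLXIPL passed, 0 of 7 tested targets passed in either count, beside 3.13% of all genes in both counts and 9.19% in exon reads, and their median was 0.02. At 1 wkpp, where MLXIPL was at -1.75 for LE over HE, the median of 8 tested targets was -0.64, with 1 higher in LE. Over all comparisons the medians of this list ran from -0.64 to 0.56. Among 29 tested partners and upstream regulators, 1 passed in both counts, in LE against HE at 16 wkpp alone, beside 3.13% of all genes in that comparison. It was LMNA, the gene of the nuclear lamins A and C. Its log2 fold change in exon reads was -1.68 ± 0.22 (adjusted P = 0.0014 and 0.0039 in whole gene reads, limma), with 2862 normalized exon reads in LE and 9395 in HE. In exon reads 1 of the 29 was higher and 4 lower in pre than in HE at 1 wkpp, beside 13.8% of all genes. In LE against HE, 1 was lower in exon reads at 1 wkpp, beside 0.872%, and 2 at 16 wkpp, beside 9.19%. The list also held LPIN1, which stood among the fatty acid and triglyceride genes too and passed in no comparison.

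**Figure D3:**
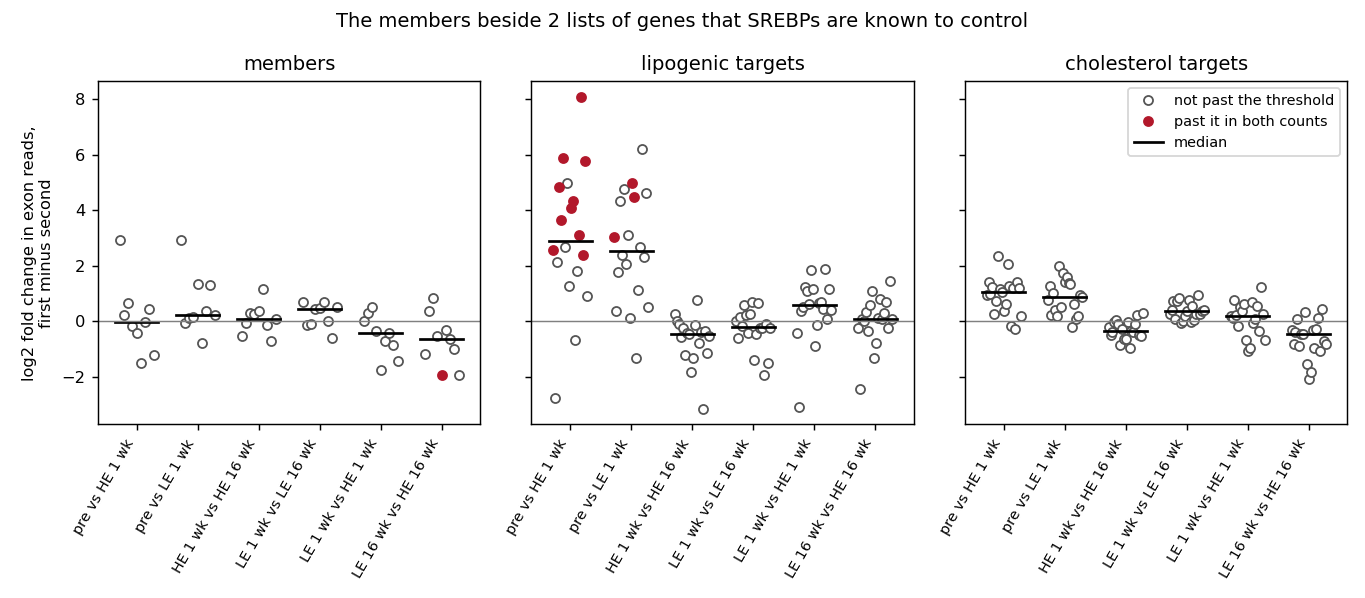
The log2 fold change in exon reads (vertical axis) of the 9 regulators, 18 lipogenic and 19 cholesterol genes in each comparison (horizontal axis); filled red points passed adjusted P under 0.01 in both counts and bars are medians. Lipogenic genes had medians of 2.89 and 2.53 in the comparisons with pre, where the regulators had -0.03 and 0.24.

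In the comparisons with pre, markers of other cells moved too. Fibroblast markers (5 measured of 6) summed to 308209 to 355518 normalized exon reads per library in pre, 33335 to 78491 in HE and 77513 to 232220 in LE at 1 wkpp, and 3 of the 5 passed as higher in pre than in HE, beside 1.11% of all genes. Of 6 adipocyte markers, 1 passed in each comparison with pre, higher in pre, beside 1.11% of all genes against HE and 0.0340% against LE. Their sums in pre were 45290 to 54821, against 71217 to 86861 in LE at 1 wkpp, where 6 of 6 did not overlap with pre, beside 19.2% of all genes, and the median log2 fold change of pre over LE was -0.02. In HE at 1 wkpp the sums were 18538 to 55681, 5 of 6 did not overlap with pre, beside 41.7% of all genes, and the median of pre over HE was 1.62. Endothelial markers (6 of 6 measured) summed to 19791 to 24238 in pre, 30886 to 64529 in HE and 30212 to 37304 in LE at 1 wkpp, with 5 of 6 not overlapping in each comparison, beside the same 41.7% and 19.2% of all genes, and medians of -0.69 and -0.58 for pre over HE and over LE. Macrophage markers summed to 4975 to 7104 in pre. Markers of endothelium, keratinocytes, erythrocytes, lymphocytes and mammary epithelium passed in no comparison. The part of these markers in the values of INSIG1, NR1H3 and the lipogenic genes was not tested.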

How the data were processed

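Per the labels and the methods of the study, the authors prepared stranded total RNA libraries, trimmed reads with Cutadapt 1.3, aligned them with TopHat2 to bosTau8, counted reads per gene with htseq-count and ran DESeq2. The deposited values include 92 rows of spike-in RNA. The deposited tables, 1 for each of 6 comparisons, hold the authors' mean normalized count over the 6 libraries of the comparison, for exons and for whole genes. Their columns of fold changes, standard errors, test statistics and p-values were not used here, and 0 columns belonged to other samples.

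The deposited means carry enough digits to solve for the whole reads of each library. A set of reads was accepted only where it gave back all deposited means of the gene, and reads were recovered for 13895 of 13896 genes. Libraries were numbered by decreasing exon size factor within a group, since the tables do not tie them to single samples. Each animal was biopsied at all 3 times in the study, so libraries of different weeks may share cows, which no fit here took into account. Scaling used median-of-ratios size factors, and genes with at least 10 reads summed over the 6 libraries of a comparison were fitted with limma 3.58.1 (voom, R 4.3.3), 3 libraries against 3, with Benjamini-Hochberg adjustment over all genes. A gene passed where adjusted P was under 0.01 in both the exon and the whole gene fit with 1 sign. Fold changes are first group over second. Both steps were tested on simulated data. An exact permutation test of 3 against 3 cannot go below 0.1 and was not used.

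All members are named, and of each list the genes that passed, at most 3 per direction by size, and the 3 genes most like a member that passed. The members and lists were chosen with earlier results of these data known. Alternatives were exon or whole gene reads alone, a threshold of 0.05, total scaling, no filter, limma-trend with a pseudocount of 1, 1 fit over 15 libraries, leaving out each library, and sample quality weights, the last chosen after seeing the data. Coordinates and sequences are not given here.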

Additional observations from a re-analysis of the deposited data

Results flagged for a closer look

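Spike-in RNA, which no comparison used, took 4.50% of the spike-in and exon reads in the lowest HE library and 27.1% in the highest, above the 0.294 to 2.28% of the pre and LE libraries. It was looked at because these reads lie outside the gene measurements. Its part in the values of the regulators was not tested.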

How the results depend on the processing

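No paired analysis was possible because the tables do not tie libraries to single samples, so their numbers carry no pairing, although libraries of different weeks may share cows. The counts of passing genes in both counts depended on the settings, and the cause was not tested. For pre against HE at 1 wkpp, 0 members and 134 genes passed; members were 3 with exon reads alone, 2 at an adjusted P under 0.05, 1 with total scaling, 2 in the fit over 15 libraries and 2 with sample quality weights. The genes were then 1695, 989, 262, 1031 and 1586, with 67 without the filter and 217 by limma-trend. The split was 85 higher and 49 lower, against 111 and 151 with total scaling, 364 and 667 in the fit over 15 libraries, and 53 and 14 without the filter. For pre against LE, 0 members and 4 genes passed; members were 1 with exon reads alone, 1 at 0.05, 1 over 15 libraries and 3 with quality weights, and genes 65, 60, 25 and 300, with 0 by total scaling and 24 by limma-trend. Total scaling moved the median of all genes to -0.16 against HE and -0.15 against LE. For LE against HE at 1 wkpp, 0 members and 0 genes passed; members were 1 with exon reads alone, 1 over 15 libraries and 2 with quality weights, and genes 104, 295 and 832, with 52 at 0.05. At 16 wkpp, 1 member and 360 genes passed; members were 2 with exon reads alone, 2 at 0.05 and 2 over 15 libraries, and genes 1076 and 1245 in the first pair. For 1 against 16 wkpp in each diet, and their difference, the count was 0 in every alternative.

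With each library left out, members passing were 0 in both comparisons with pre, 0 to 1 in LE against HE at 1 wkpp (MLXIPL, at -2.17 without the first HE library) and 0 to 1 at 16 wkpp (SREBF2, at -2.46 without the second HE library). Genes passing were 0 to 192 and 0 to 79 in the comparisons with pre, 0 to 704 at 1 wkpp (704 without the first HE library) and 25 to 116 at 16 wkpp.

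The values that changed sign had passed no test. With whole gene reads these were SCAP at 0.18 (pre against HE), MBTPS2 at -0.01 (pre against LE), SREBF2 at -0.14 and SCAP at 0.03 (HE, 1 against 16 wkpp) and MBTPS1 at 0.13 (difference of the diets). With total scaling they were MBTPS2 at -0.01 (pre against LE) and at 0.01 (LE, 1 against 16 wkpp), and with quality weights SCAP at -0.00 in LE and, in the difference of the diets, SREBF1 at -0.09, MLXIPL at -0.21 and MBTPS1 at 0.08. With a library left out, the ranges that crossed 0 were, in pre against HE, SCAP -0.11 to 0.03 and MLX -0.30 to 0.00. In pre against LE they were SREBF2 -0.03 to 0.45 and MBTPS1 -0.14 to 0.03. In HE they were SREBF2 -0.47 to 0.47, SCAP -0.44 to 0.10 and MBTPS1 -0.16 to 0.03, and in LE SCAP -0.12 to 0.14 and MBTPS2 -0.16 to 0.03. In LE against HE at 1 wkpp, INSIG1 was at -0.31 to 0.73. In the difference of the diets, SREBF1 was at -0.24 to 0.45, SCAP at -0.06 to 0.48, MLXIPL at -0.27 to 0.44 and MBTPS1 at -0.14 to 0.05. The HE libraries held 2207801 to 7658010 exon reads, and the median SE over all genes was 0.31 in pre against HE, 0.32 in both comparisons of HE at 1 wkpp with another fed group and 0.25 in LE against HE at 16 wkpp, beside 0.25 in pre against LE and 0.24 within LE. The part of depth was not tested.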
